A study of Homo sapiens with 36 samples.

Results

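The 39 genes described here encode the enzymes that load amino acids onto transfer RNAs, with their scaffold proteins. Of these, 20 encode cytosolic aminoacyl-tRNA synthetases, 16 encode mitochondrial ones (symbols ending in 2), and AIMP1, AIMP2 and EEF1E1 encode the scaffolds that hold 8 of the cytosolic enzymes in the multi-tRNA synthetase complex. They were taken by gene symbol, though with earlier results of these data known. All 39 were found in both deposited expression tables, which hold 13364 and 13066 human genes. The study treated the human melanoma lines 501mel and IGR37 for 48 h against stearoyl-CoA desaturase (SCD), the enzyme that puts the double bond into newly made fatty acids. Each line had 6 groups of 3 libraries, 36 libraries in all. In SCDi cells the inhibitor A939372 was given at 1 uM, with DMSO as its control; siSCD#1 and siSCD#2 are 2 small interfering RNAs against SCD given at 20 nM, and the siCTRL libraries that belong to each are called siCTR#1 and siCTR#2. The labels do not say whether both used the same control RNA. Each line is a single line, so a difference between them is a difference between 2 lines and not between kinds of melanoma.

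Each synthetase joins 1 amino acid to its transfer RNAs, in the cytosol for proteins made from nuclear genes and in mitochondria for the few proteins made there. GARS and KARS serve both compartments from a single gene, EPRS carries the activities for glutamate and proline in 1 chain, and FARSA and FARSB are the subunits of 1 enzyme. When amino acids run short or other stresses slow translation, the transcription factor ATF4 accumulates and, paired with a C/EBP protein, turns on genes of amino acid synthesis, amino acid uptake and many cytosolic synthetases. WARS is also known as a gene that interferon-gamma induces.

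The letters that ATF4 and C/EBP proteins are known to bind together, TGATGNAA, were searched on both strands of the RefSeq promoter windows of build GRCh38.p14. Each window ran from 250 bases before to 50 after 1 start per gene, which need not be its outermost start. Windows were available for 33 of the 39 genes, and not for DARS, LARS, VARS, YARS, AARS2 and VARS2. The element was present in 5 of 16 cytosolic windows (31.2%), in 1 of 14 mitochondrial windows (7.14%) and in 0 of 3 scaffold windows. Over all RefSeq genes, whether measured here or not, it was in 1270 of 35116 windows (3.62%). The exact form TGATGCAA was in 4 cytosolic windows (25%), in 0 mitochondrial windows and in 304 of those 35116 windows (0.866%). The 30 bases around each match are shown because they set the cytosolic and mitochondrial promoters side by side, with the element in capitals; HARS and HARS2 start back to back and their windows share 184 bases.
AARS: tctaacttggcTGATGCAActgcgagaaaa
GARS: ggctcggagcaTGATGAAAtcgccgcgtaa
IARS: gcgcacggaggTGATGCAAcgcgctgaaaa
MARS: gaatccctcgcTGATGCAAccggaaccggc
NARS: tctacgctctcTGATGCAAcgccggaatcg
YARS2: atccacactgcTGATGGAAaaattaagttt
These lie at chr16:70289675-70289704 (plus strand) for AARS, chr7:30594834-30594863 (minus strand) for GARS, chr9:92293692-92293721 (plus strand) for IARS, chr12:57488053-57488082 (minus strand) for MARS, chr18:57621804-57621833 (minus strand) for NARS and chr12:32756076-32756105 (minus strand) for YARS2. A match describes the letters only, and no match says only that they are not in this window.

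Libraries were made from transcript 3' ends (QuantSeq Forward), so a transcript gives about 1 read whatever its length. The tables held 4078450 to 6685898 gene reads per library for DMSO, SCDi, siCTR#2 and siSCD#2 and 2402788 to 7483010 for siCTR#1 and siSCD#1. A count of 0 in a library allows up to 0.3877 to 1.192 CPM (reads scaled to library size, as the authors give them), and the least read member in any group, PARS2 in IGR37 siSCD#2 cells, had 58 reads over 3 libraries. All 7 melanoma and melanocyte markers were measured, with a summed level of 2960 to 6990 CPM per library, against at most 19.8 CPM for the fibroblast markers (3 of 5 measured in the first and 1 in the second table), 10.9 CPM for the epithelial markers (2 of 5 in each) and 5.29 CPM for the blood and endothelial markers (2 of 5 in each). SCD averaged 6.94 ± 0.11 log2 CPM in 501mel siSCD#1 cells and 9.79 ± 0.03 in siCTR#1 cells, and 7.43 ± 0.09 in IGR37 siSCD#1 cells and 10.09 ± 0.05 in siCTR#1 cells (SD, n = 3 each). It averaged 5.03 ± 0.07 in 501mel siSCD#2 cells and 9.36 ± 0.13 in siCTR#2 cells, and 5.97 ± 0.61 in IGR37 siSCD#2 cells and 10.12 ± 0.06 in siCTR#2 cells. Under SCDi, which blocks the enzyme and not its transcript, SCD changed by 0.29 ± 0.16 in 501mel (adjusted p = 0.573) and 0.63 ± 0.16 in IGR37 cells (0.00215). The 3 IGR37 siSCD#2 libraries, at 6.52, 5.32 and 6.09, were spread more widely than any other group. These are bulk libraries, in which a change in some cells and a change in all cells cannot be told apart. The labels do not say whether the 3 libraries of a group came from separate cultures, so p-values measure the spread between libraries only. That spread was pooled over all groups of a table, not taken from the compared libraries alone. GARS, for one, had an SD of 0.47 in IGR37 siSCD#2 and 0.06 in IGR37 siCTR#2 libraries, so pooled errors can understate the spread of the siSCD#2 group.

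In IGR37 cells the SCD inhibitor raised most cytosolic synthetases and lowered several mitochondrial ones. Of the 20 cytosolic enzymes, 13 rose and 4 fell, while 3 of the 16 mitochondrial enzymes rose and 6 fell (limma, adjusted p under 0.05 over all genes of the table). Over all genes, 20.9% were higher and 23.1% lower by the same rule, 44.1% in all. The median change on the log2 scale was 0.67 for the cytosolic enzymes, -0.05 for the mitochondrial enzymes and 0 for all genes. Counted by direction after scaling to spike-in RNA, 11 cytosolic enzymes were higher and 4 lower, and 1 mitochondrial enzyme was higher and 4 lower. The groups did not overlap for 18 of the 20 cytosolic and 8 of the 16 mitochondrial enzymes, against 58.1% of all genes.

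CARS, the cysteine enzyme (hg38 chr11:3000922-3057613), had 8.12, 8.09 and 8.22 log2 CPM in IGR37 SCDi libraries, against 6.31, 6.15 and 6.27 in DMSO libraries. WARS, the tryptophan enzyme (chr14:100333788-100376805), had 9.49, 9.46 and 9.57 in SCDi libraries, against 7.56, 7.58 and 7.63 in DMSO libraries. SARS, the serine enzyme (chr1:109213918-109238169), had 7.68, 7.60 and 7.70 in SCDi libraries, against 6.05, 5.88 and 6.12 in DMSO libraries. For these 3 genes every inhibitor library stood more than 1 log2 unit above every DMSO library. The log2 changes were 1.90 ± 0.09 for CARS (SE, adjusted p = 3.24e-14), 1.92 ± 0.10 for WARS (6.93e-14) and 1.64 ± 0.11 for SARS (4.86e-12). GARS, the glycine enzyme (chr7:30594681-30634033), had 8.61, 8.43 and 8.52 in SCDi libraries, against 6.35, 6.57 and 6.50 in DMSO libraries, a change of 2.05 ± 0.15 (adjusted p = 6.85e-11). After these 4 genes and MARS, the cytosolic enzymes that rose furthest were YARS at 1.47, AARS at 1.38, EPRS at 1.26 and IARS at 1.00, and the smallest rise was that of NARS at 0.47. The 5 cytosolic genes with the TGATGNAA element all rose, and so did 8 others, among them CARS, SARS and WARS, whose windows hold no match. The windows of CARS (chr11:3040935-3041234) and WARS (chr14:100375298-100375597) lie within the gene spans given above. So do some windows with a match. The MARS window (chr12:57487818-57488117) lies within its gene (chr12:57475445-57517569), and the NARS window (chr18:57621787-57622086) within its own (chr18:57600656-57622213). Several other windows, among them those of KARS and CARS2, also lie inside their genes. The outermost starts of these genes were thus not searched.

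The cytosolic enzymes that fell were those for lysine, phenylalanine and histidine. KARS had 6.78, 6.93 and 6.92 log2 CPM in IGR37 SCDi libraries, against 7.38, 7.24 and 7.30 in DMSO libraries, with no overlap and a change of -0.44 ± 0.09 (adjusted p = 0.000188). FARSA changed by -0.69 ± 0.14, FARSB by -0.45 ± 0.09 and HARS by -0.67 ± 0.17 (adjusted p = 0.000205, 0.000399 and 0.00186). QARS, RARS and VARS, at -0.21 ± 0.10, -0.09 ± 0.08 and -0.16 ± 0.11, did not pass the test. Among the cytosolic enzymes of class I, the structural class of CARS, MARS, WARS and YARS and of the glutamate part of EPRS, 7 of 10 rose and 0 fell, and of the 10 class II enzymes 6 rose and 4 fell. Of the 8 enzymes held in the multi-tRNA synthetase complex 5 rose and 1 fell, with a median of 0.67, and of the 12 outside it 8 rose and 3 fell, with a median of 0.97; the difference was not tested.

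MARS, the methionine enzyme (chr12:57475445-57517569), had 7.83, 7.57 and 7.48 log2 CPM in IGR37 SCDi libraries, against 5.39, 5.68 and 5.59 in DMSO libraries, a change of 2.08 ± 0.21 (adjusted p = 1.57e-08). Its 3' end overlaps that of DDIT3, a stress factor gene on the opposite strand, which had 7.73, 7.69 and 7.68 in SCDi libraries, against 3.54, 3.42 and 3.71 in DMSO libraries. Both rose together, with 2975 reads for MARS and 3118 for DDIT3 in the SCDi libraries, against 754 and 188 in the DMSO libraries. Whether the authors counted reads by strand is not stated, so the part of DDIT3 reads in the MARS value was not tested. In 501mel siSCD#1 cells MARS changed by 0.74 and DDIT3 by 3.39, and in IGR37 SCDi cells by 2.08 and 4.14. Exons of another gene also lie at the 3' end of HARS, WARS and AIMP2 on the opposite strand and of HARS2 and SARS2 on the same strand, and 13 members have a named pseudogene, so their counts are less certain.

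EARS2, the mitochondrial glutamate enzyme (chr16:23522014-23557731), had 3.98, 4.31 and 4.45 log2 CPM in IGR37 SCDi libraries, against 5.09, 5.20 and 5.05 in DMSO libraries. MARS2, for methionine, had 2.78, 3.11 and 3.44 in SCDi libraries, against 4.34, 4.50 and 3.71 in DMSO libraries. LARS2, for leucine, had 3.92, 4.44 and 4.13 in SCDi libraries, against 4.69, 4.75 and 4.93 in DMSO libraries. All 3 were lower without overlap, at -0.87 ± 0.13, -1.07 ± 0.19 and -0.63 ± 0.14 (adjusted p = 8.87e-06, 3.78e-05 and 0.000881). YARS2, IARS2 and CARS2 fell as well, at -0.54, -0.49 and -0.32, while WARS2 rose by 0.82, VARS2 by 0.55 and RARS2 by 0.46. Some of these calls were lost without 1 library: CARS2 without DMSO replicate 1 or 3 or SCDi replicate 1 or 2 (-0.21 without DMSO replicate 3), IARS2 without DMSO replicate 1 or 2, YARS2 without DMSO replicate 1 or SCDi replicate 3, and VARS2 without DMSO replicate 2 or SCDi replicate 3. YARS2, the mitochondrial gene with the TGATGNAA element, was thus among those that fell. EEF1E1, a scaffold, had 6.15, 6.04 and 5.83 in SCDi libraries, against 6.60, 6.57 and 6.31 in DMSO libraries, lower in every library, with a change of -0.49 ± 0.11 (adjusted p = 0.0011). AIMP1 (0.34 ± 0.15) and AIMP2 (-0.11 ± 0.11) did not pass.

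**Figure D1:**
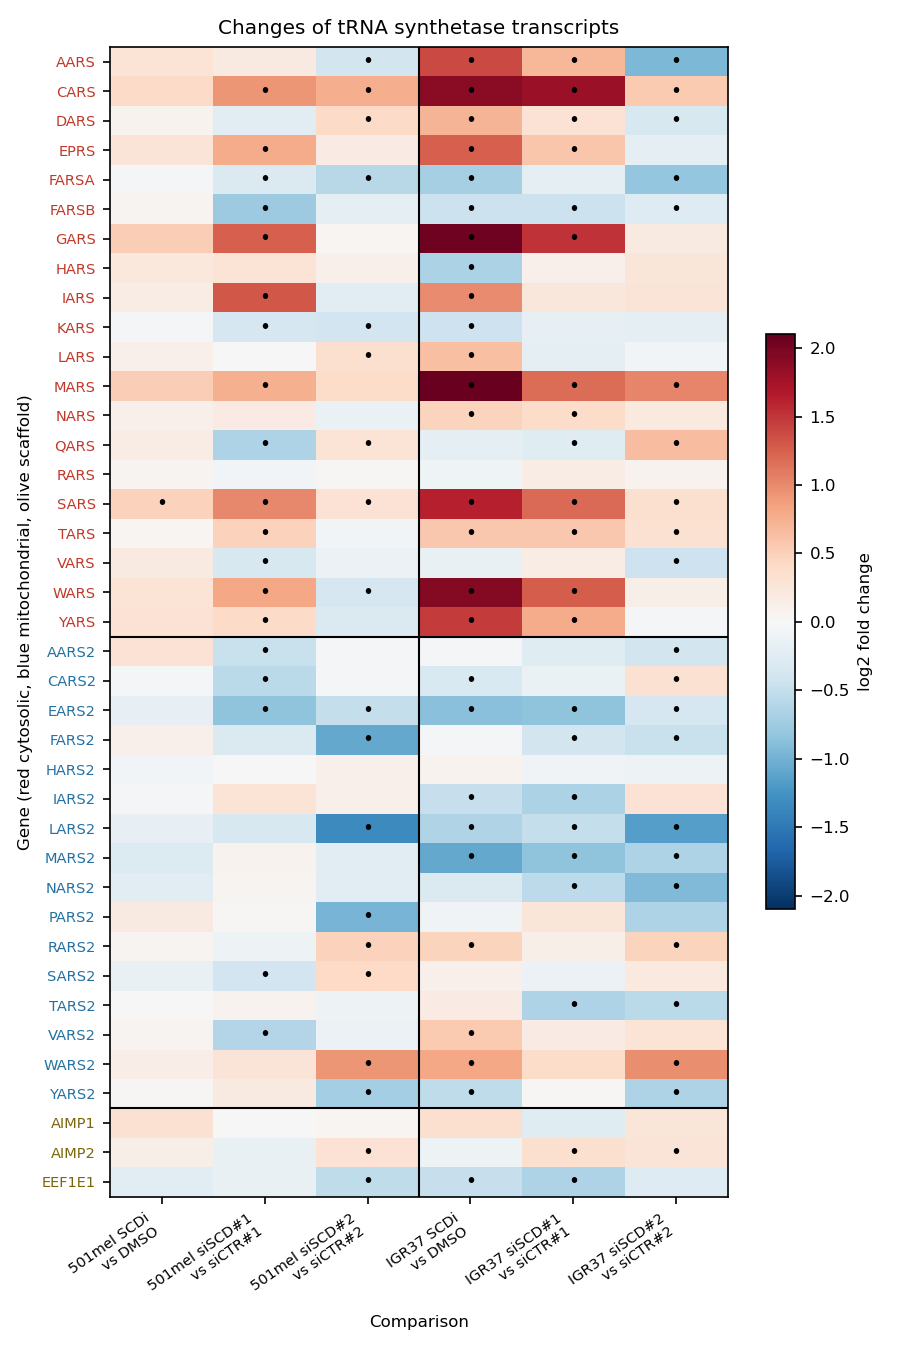
Log2 fold changes of the 39 genes (rows) in the 6 comparisons of treated with control cells (columns), red for higher and blue for lower in treated cells; a dot marks an adjusted p under 0.05. The IGR37 SCDi column holds the deepest reds, in the cytosolic block, and the blue of EARS2, LARS2 and MARS2 runs through all 3 IGR37 columns.

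In 501mel cells the same inhibitor moved the module far less. SARS, which had 7.75, 7.72 and 7.77 log2 CPM in SCDi libraries, against 7.34, 7.15 and 7.27 in DMSO libraries, was the 1 member that passed, with a rise of 0.49 ± 0.11 (adjusted p = 0.0411), in a comparison that called 0.232% of all genes higher and 0.0599% lower, 0.292% in all. That call was lost when any 1 of its 6 libraries was left out. With SARS included, 18 of the 20 cytosolic enzymes had a positive change, and 7 were higher at an unadjusted p under 0.05, as were 5.25% of all genes. Their median change was 0.17, against -0.02 for the mitochondrial enzymes. CARS changed by 0.41 ± 0.09, GARS by 0.52 ± 0.15 and WARS by 0.28 ± 0.10 (adjusted p = 0.0619, 0.198 and 0.304). The groups did not overlap for 10 of the 20 cytosolic and 3 of the 16 mitochondrial enzymes, against 18.5% of all genes.

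The difference between the lines was tested as an interaction. The inhibitor effect was larger in IGR37 than in 501mel cells for 13 cytosolic enzymes and smaller or more negative for 5, and it was more negative for 2 mitochondrial enzymes, where 12.3% and 15.3% of all genes passed in the 2 directions, 27.6% in all. WARS changed by 1.92 in IGR37 and 0.28 in 501mel cells, a difference of 1.64 ± 0.14 (adjusted p = 3.43e-09). For CARS the changes were 1.90 in IGR37 and 0.41 in 501mel cells, which differed by 1.49 ± 0.13 (adjusted p = 7.14e-09). SARS changed by 1.64 in IGR37 and 0.49 in 501mel cells, with a difference of 1.15 ± 0.15 (adjusted p = 2.96e-06). EARS2 (-0.87 in IGR37, -0.17 in 501mel cells) and MARS2 (-1.07 in IGR37, -0.29 in 501mel cells) differed by -0.70 ± 0.19 and -0.78 ± 0.26 (adjusted p = 0.00702 and 0.0285), and the MARS2 difference did not pass without 501mel DMSO replicate 1 or 2, 501mel SCDi replicate 1 or 3, IGR37 DMSO replicate 1 or 2 or IGR37 SCDi replicate 1. Scaled to spike-ins, the median of all genes in this difference shifted to -0.49 the cytosolic calls became 4 higher and 6 lower and the mitochondrial calls 0 higher and 5 lower; that scaling shifted the median of all genes by 0.364 for the 501mel and by -0.099 for the IGR37 inhibitor comparison.

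Under the first siRNA, siSCD#1, more cytosolic enzymes rose than fell in both lines, and 0 mitochondrial enzymes rose in either. In 501mel cells 9 cytosolic enzymes rose and 5 fell, and 0 mitochondrial enzymes rose and 5 fell, where 20.9% of all genes were higher and 22% lower, 43% in all. In IGR37 cells 11 cytosolic enzymes rose and 2 fell, and 0 mitochondrial enzymes rose and 7 fell, where 16.7% of all genes were higher and 19.4% lower, 36.1% in all. Treated and control libraries did not overlap for 17 cytosolic and 9 mitochondrial enzymes in 501mel cells, against 53.2% of all genes, and for 15 and 8 in IGR37 cells, against 48.7%. Median changes were 0.23 and -0.06 for cytosolic and mitochondrial enzymes in 501mel cells and 0.35 and -0.20 in IGR37 cells. Scaled to spike-ins, the cytosolic calls were 7 higher and 6 lower in 501mel cells and 7 higher and 5 lower in IGR37 cells; quantile normalisation gave 11 higher and 2 lower cytosolic calls and 1 higher and 7 lower mitochondrial calls in 501mel cells.

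GARS had 7.68, 7.87 and 7.94 log2 CPM in 501mel siSCD#1 libraries, against 6.65, 6.58 and 6.47 in siCTR#1 libraries. In IGR37 cells it had 8.06, 8.14 and 8.18 in siSCD#1 libraries, against 6.49, 6.72 and 6.61 in siCTR#1 libraries. It was higher by 1.26 ± 0.09 in 501mel and 1.52 ± 0.09 in IGR37 cells (adjusted p = 1.53e-08 and 2.36e-09), with no overlap in either line. WARS had 7.42, 7.53 and 7.50 in 501mel siSCD#1 libraries, against 6.70, 6.54 and 6.76 in siCTR#1 libraries, and 8.93, 9.22 and 8.93 in IGR37 siSCD#1 libraries, against 7.81, 7.71 and 7.76 in siCTR#1 libraries. SARS had 7.80, 7.97 and 7.99 in 501mel siSCD#1 libraries, against 6.95, 7.06 and 6.73 in siCTR#1 libraries. Again each treated library stood above each control library, by 0.82 ± 0.09 for WARS in 501mel and 1.27 ± 0.09 in IGR37 cells and by 1.01 ± 0.09 for SARS in 501mel cells (adjusted p = 1.69e-06, 2.05e-08 and 4.31e-07).

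Cysteine and isoleucine enzymes led the differences between the lines under siSCD#1. CARS had 8.03, 8.50 and 8.05 log2 CPM in IGR37 siSCD#1 libraries, against 6.35, 6.39 and 6.38 in siCTR#1 libraries, a rise of 1.82 ± 0.12 (adjusted p = 1.22e-08). Its rise in 501mel cells was 0.92 ± 0.12, and the 2 changes differed by 0.90 ± 0.17 (adjusted p = 0.0018). IARS went the other way: it had 5.92, 6.05 and 6.12 in 501mel siSCD#1 libraries, against 4.37, 4.91 and 4.91 in siCTR#1 libraries. That rise of 1.30 ± 0.14 in 501mel cells stood beside 0.23 ± 0.14 in IGR37 cells, which did not pass, and the difference of -1.07 ± 0.20 did (adjusted p = 0.00205). In all, the siSCD#1 effect was larger in IGR37 for 5 cytosolic, 1 mitochondrial and 1 scaffold member and smaller for 1, 2 and 1, where 10% and 10.3% of all genes passed in the 2 directions, 20.3% in all. Quantile normalisation gave 2 cytosolic enzymes higher and 1 lower and 2 mitochondrial ones higher and 1 lower, and spike-in scaling 1 and 1 cytosolic and 0 and 1 mitochondrial.

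EARS2 had 4.0, 4.28 and 3.97 log2 CPM in 501mel siSCD#1 libraries, against 5.06, 4.83 and 4.89 in siCTR#1 libraries. In IGR37 cells it had 4.04, 3.84 and 4.21 in siSCD#1 libraries, against 5.07, 4.72 and 4.82 in siCTR#1 libraries. The fall was -0.84 ± 0.15 in both lines (adjusted p = 0.000244 in 501mel and 0.000355 in IGR37 cells), and the difference between lines was 0.01 ± 0.21. CARS2 and VARS2 fell in 501mel cells, at -0.57 ± 0.12 and -0.61 ± 0.15 (adjusted p = 0.000866 and 0.00338). In IGR37 cells it was IARS2 and MARS2, at -0.67 ± 0.12 and -0.84 ± 0.21 (adjusted p = 0.000545 and 0.00462). IARS2 had 6.44, 6.09 and 6.56 in IGR37 siSCD#1 libraries, against 7.10, 7.04 and 6.95 in siCTR#1 libraries, while in 501mel cells its change was 0.28 ± 0.12, and the difference between lines of -0.95 ± 0.18 passed (adjusted p = 0.00171). The IGR37 fall of TARS2, at -0.65 ± 0.19, did not pass without siSCD#1 replicate 2, where it was -0.42. Other IGR37 falls were lost without 1 library as well. These were FARS2 (-0.39) without siCTR#1 replicate 1, 2 or 3 or siSCD#1 replicate 2 or 3, and NARS2 (-0.55) without siCTR#1 replicate 1 or siSCD#1 replicate 2. LARS2 (-0.50) was lost without siCTR#1 or siSCD#1 replicate 3. EEF1E1 had 5.66, 5.44 and 5.86 in IGR37 siSCD#1 libraries, against 6.42, 6.39 and 6.12 in siCTR#1 libraries, lower, at -0.65 ± 0.12 (adjusted p = 0.000421), and AIMP2 was higher there by 0.33 ± 0.07 (adjusted p = 0.00212).

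**Figure D2:**
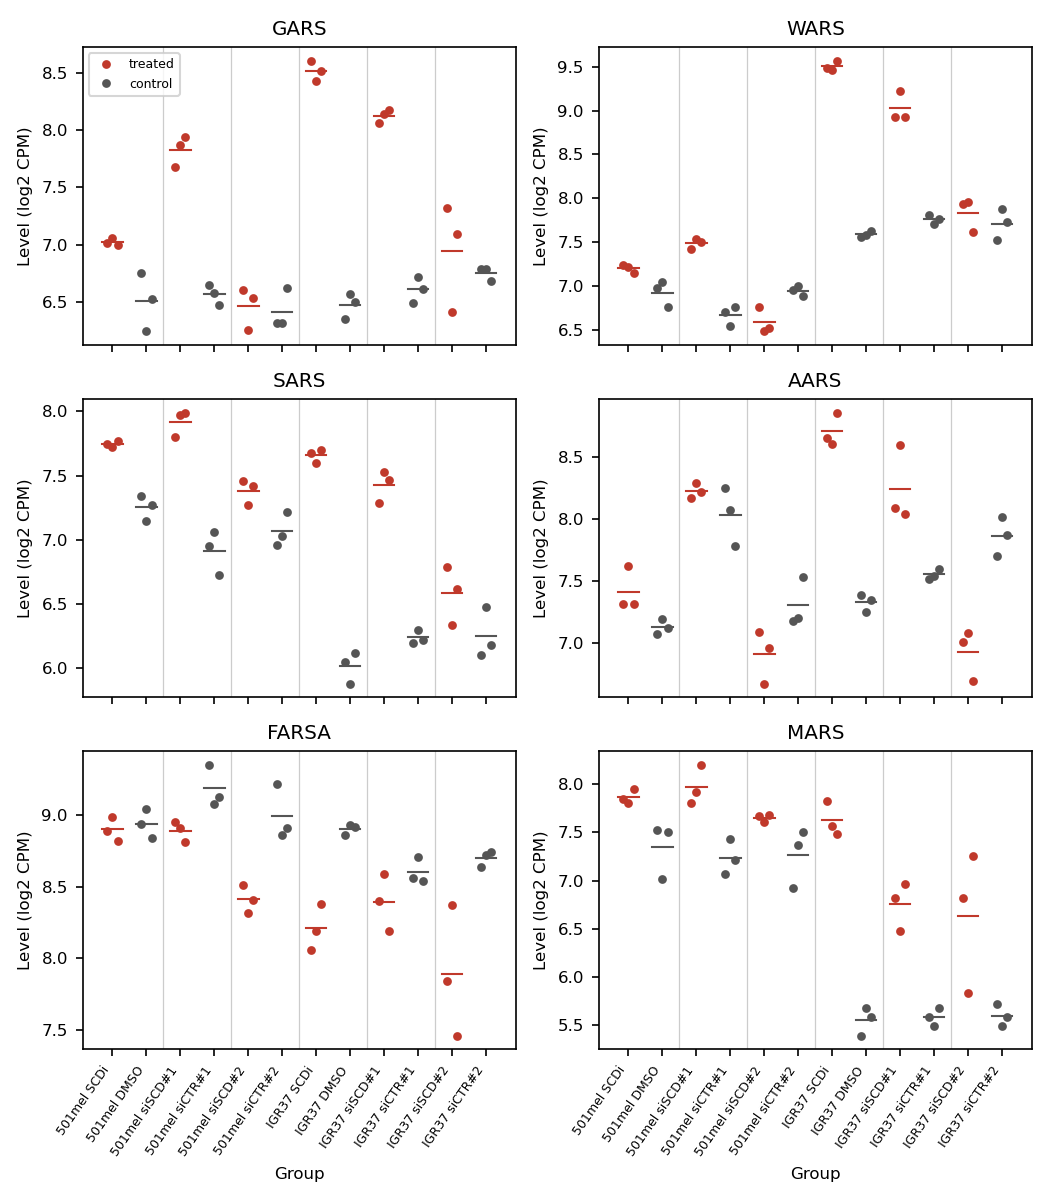
Levels (log2 CPM) of 6 cytosolic synthetase genes in each of the 36 libraries, treated group left of its control; points are libraries, bars are means of 3, and the vertical axes do not start at 0. GARS, WARS and SARS stand clear of their controls under SCDi and siSCD#1 in IGR37 and under siSCD#1 in 501mel cells, FARSA lies below its controls in IGR37 SCDi cells, and AARS lies below its controls under siSCD#2.

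The second siRNA, siSCD#2, under which SCD changed by -4.33 in 501mel and -4.15 in IGR37 cells, split the cytosolic enzymes about evenly. In 501mel cells 5 cytosolic enzymes rose and 4 fell, and 3 mitochondrial enzymes rose and 5 fell, where 18.3% of all genes were higher and 19.5% lower, 37.9% in all. In IGR37 cells 5 cytosolic enzymes rose and 5 fell, and 3 mitochondrial enzymes rose and 8 fell, where 23.2% of all genes were higher and 22.7% lower, 45.9% in all. Treated and control libraries did not overlap for 13 cytosolic and 9 mitochondrial enzymes in 501mel cells, against 47.2% of all genes, and for 9 and 12 in IGR37 cells, against 50.6%. Median changes were -0.02 and -0.12 for cytosolic and mitochondrial enzymes in 501mel cells and 0.10 and -0.38 in IGR37 cells. The direction of the smaller rises rests on the scaling: after scaling to spike-ins the median of all genes shifted to -0.63 in 501mel and -0.51 in IGR37 cells, 0 members were higher, and 13 cytosolic and 12 mitochondrial enzymes were lower in 501mel and 9 and 10 in IGR37 cells. With the 2 compared groups alone in the fit, 12 members passed in IGR37 cells rather than 22.

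CARS rose in both lines, with 7.73, 7.49 and 7.49 log2 CPM in 501mel siSCD#2 libraries, against 6.82, 6.71 and 6.87 in siCTR#2 libraries, a change of 0.77 ± 0.09 (adjusted p = 3.96e-07), and a change of 0.55 ± 0.09 in IGR37 cells (3.1e-05). KARS fell in 501mel cells, with 7.29, 7.25 and 7.42 in siSCD#2 libraries, against 7.80, 7.66 and 7.69 in siCTR#2 libraries, and its change was -0.40 ± 0.09 (adjusted p = 0.000649). In neither line did the treated and control libraries of CARS overlap, nor did those of KARS in 501mel cells. AARS, the alanine enzyme (chr16:70252295-70289543), had 7.01, 7.08 and 6.69 in IGR37 siSCD#2 libraries, against 7.70, 8.02 and 7.87 in siCTR#2 libraries, lower, at -0.94 ± 0.12 (adjusted p = 6.77e-07). QARS, the glutamine enzyme, had 7.51, 7.20 and 7.58 in IGR37 siSCD#2 libraries, against 6.70, 6.81 and 6.82 in siCTR#2 libraries, higher by 0.65 ± 0.10 (adjusted p = 4.16e-06). FARSA had 7.84, 8.37 and 7.46 in IGR37 siSCD#2 libraries, against 8.64, 8.72 and 8.74 in siCTR#2 libraries, lower, at -0.81 ± 0.14 (adjusted p = 3.1e-05). AARS and FARSA fell in 501mel cells too, at -0.39 ± 0.12 and -0.59 ± 0.14 (adjusted p = 0.0117 and 0.00139), though AARS did not pass there without siCTR#2 replicate 3 or siSCD#2 replicate 2.

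GARS and WARS, which rose under siSCD#1 in both lines, did not rise here. GARS changed by 0.04 ± 0.15 in 501mel and 0.19 ± 0.15 in IGR37 cells and did not pass in either. WARS fell, at -0.36 ± 0.10 in 501mel cells (adjusted p = 0.00539) and changed by 0.12 ± 0.10 in IGR37 cells, a difference between lines of 0.48 ± 0.14 (adjusted p = 0.0157) that did not pass without IGR37 siCTR#2 replicate 1. SARS rose by 0.31 ± 0.11 in 501mel and 0.33 ± 0.11 in IGR37 cells (adjusted p = 0.0226 and 0.0144), but scaled to spike-ins it was at -0.31 and -0.18. Its call was lost without siCTR#2 replicate 1 or 2 or siSCD#2 replicate 1 or 3 in 501mel cells and without siCTR#2 replicate 1 or 3 or siSCD#2 replicate 1 in IGR37 cells. In IGR37 cells MARS had 6.82, 5.83 and 7.26 in siSCD#2 libraries, against 5.72, 5.49 and 5.59 in siCTR#2 libraries, beside DDIT3 at 5.89, 5.22 and 5.62, against 3.39, 3.31 and 3.57 in siCTR#2 libraries.

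DARS, the aspartate enzyme (chr2:135906677-135986100), moved in opposite directions under siSCD#2, and so did its control. It had 7.08, 7.10 and 7.25 log2 CPM in 501mel siSCD#2 libraries, against 6.62, 6.76 and 6.83 in siCTR#2 libraries, and 6.60, 6.59 and 6.57 in IGR37 siSCD#2 libraries, against 6.81, 7.07 and 6.92 in siCTR#2 libraries. The changes of 0.41 ± 0.09 in 501mel and -0.34 ± 0.09 in IGR37 cells both passed (adjusted p = 0.000712 and 0.0025), and differed by -0.75 ± 0.13 (0.000107). DMSO libraries had 7.09, 7.10 and 7.31 in 501mel and 6.27, 6.45 and 6.22 in IGR37 cells, so siCTR#2 stood -0.43 ± 0.09 below DMSO in 501mel and 0.62 ± 0.09 above it in IGR37 cells (adjusted p = 0.002 and 2.45e-05). The siCTR#2 against DMSO comparison called 0 members higher and 1 lower in 501mel cells, where 4.74% and 6.57% of all genes passed (11.3% in all), and 4 higher and 2 lower in IGR37 cells, where 6.46% and 8.99% passed (15.5% in all). The IGR37 ones were DARS, CARS (0.42), AARS (0.53) and TARS2 (0.54) higher and RARS (-0.26) and AIMP2 (-0.33) lower. Calls of TARS2, RARS and AIMP2 were lost without any 1 of several libraries, and scaled to spike-ins 0 of the 6 passed; quantile normalisation gave 4 cytosolic enzymes higher and 0 lower. Beside the IGR37 AARS fall under siSCD#2 stands therefore a control level above DMSO, whose part in that fall was not tested. In all, the siSCD#2 effect was larger in IGR37 for 4 cytosolic and 1 mitochondrial member and smaller for 3 cytosolic ones, where 11.6% and 9.47% of all genes passed, 21.1% in all. Between 4 and 11 members passed when single libraries were left out, and the cytosolic split was 1 higher and 3 lower with quantile normalisation, 2 and 3 with median centring and 0 and 0 scaled to spike-ins.

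The member with the lowest log2 change under siSCD#2 was mitochondrial in each line. LARS2 (chr3:45388506-45549421) had 3.80, 3.47 and 3.65 log2 CPM in 501mel siSCD#2 libraries, against 5.06, 4.93 and 4.93 in siCTR#2 libraries. In IGR37 cells it had 3.78, 3.53 and 3.51 in siSCD#2 libraries, against 4.69, 4.96 and 4.60 in siCTR#2 libraries. The fall was -1.34 ± 0.14 in 501mel and -1.15 ± 0.14 in IGR37 cells (adjusted p = 4.99e-08 and 4.32e-07), with no overlap. FARS2, for phenylalanine, had 3.86, 3.93 and 4.14 in 501mel siSCD#2 libraries, against 5.04, 5.08 and 5.01 in siCTR#2 libraries. It fell in both lines, at -1.07 ± 0.12 there and -0.47 ± 0.12 in IGR37 cells (adjusted p = 1.88e-07 and 0.00313), a difference of 0.60 ± 0.18 (0.0166) that did not pass without IGR37 siSCD#2 replicate 3. NARS2, for asparagine, had 2.88, 3.04 and 3.28 in IGR37 siSCD#2 libraries, against 4.06, 3.87 and 4.04 in siCTR#2 libraries, lower, at -0.92 ± 0.23 (adjusted p = 0.00174).

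WARS2, for tryptophan, was 1 of the 3 mitochondrial enzymes that rose in each line. It had 5.51, 5.32 and 5.20 log2 CPM in 501mel siSCD#2 libraries, against 4.13, 4.45 and 4.69 in siCTR#2 libraries, and 4.43, 3.41 and 3.92 in IGR37 siSCD#2 libraries, against 3.02, 2.99 and 2.83 in siCTR#2 libraries. The rise was 0.92 ± 0.20 in 501mel and 0.97 ± 0.20 in IGR37 cells (adjusted p = 0.00058 and 0.000237), with no overlap. RARS2 rose by 0.48 in 501mel and 0.47 in IGR37 cells (adjusted p = 0.00809 and 0.00801), but scaled to spike-ins it was at -0.14 and -0.04. Among the scaffolds, EEF1E1 had 5.83, 6.15 and 6.22 in 501mel siSCD#2 libraries, against 6.71, 6.67 and 6.45 in siCTR#2 libraries, lower, at -0.54 ± 0.11 (adjusted p = 0.000508). AIMP2 had 7.71, 7.51 and 7.62 in IGR37 siSCD#2 libraries, against 7.26, 7.47 and 7.31 in siCTR#2 libraries, higher by 0.27 ± 0.11 (adjusted p = 0.0457), a call that was lost without siCTR#2 replicate 1 or 3 or siSCD#2 replicate 1 or 3.

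The inhibitor and siSCD#2 were compared directly, since both were in the same table with their own controls; this comparison was added after the data had been seen. In IGR37 cells the inhibitor effect exceeded the siSCD#2 effect for 11 cytosolic and 2 mitochondrial enzymes and was below it for 2 and 3, where 18.7% and 20.2% of all genes passed, 38.8% in all. AARS changed by 1.38 under the inhibitor and -0.94 under siSCD#2, a difference of 2.32 ± 0.17 (adjusted p = 7.77e-11). For WARS the changes of 1.92 under the inhibitor and 0.12 under siSCD#2 differed by 1.80 ± 0.14 (adjusted p = 2.02e-10), and for CARS those of 1.90 and 0.55 differed by 1.35 ± 0.13 (1.29e-08). QARS lay the other way, with -0.21 under the inhibitor and 0.65 under siSCD#2 (difference -0.87 ± 0.14, adjusted p = 1.3e-05). CARS2 and IARS2 differed by -0.64 ± 0.18 and -0.80 ± 0.22 (adjusted p = 0.00514 and 0.00607). Scaled to spike-ins, 11 cytosolic and 3 mitochondrial enzymes were higher and 0 lower in this difference, and median centring gave 1 mitochondrial enzyme higher and 3 lower.

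In 501mel cells the inhibitor effect exceeded the siSCD#2 effect for 5 cytosolic and 4 mitochondrial enzymes and was below it for 1 mitochondrial enzyme, where 11.5% and 9.51% of all genes passed, 21% in all. WARS, AARS and YARS led the cytosolic ones, with differences of 0.64 ± 0.14, 0.68 ± 0.17 and 0.61 ± 0.18 (adjusted p = 0.00163, 0.00512 and 0.0179). FARS2 and LARS2 led the mitochondrial ones, with 1.18 ± 0.18 and 1.16 ± 0.20 (adjusted p = 1.94e-05 and 0.000143). These 2 fell under siSCD#2 and were at 0.11 and -0.17 under the inhibitor. Between 5 and 11 members passed when single libraries were left out, and scaled to spike-ins the split was 19 cytosolic and 12 mitochondrial enzymes higher and 0 lower. Quantile normalisation gave 5 cytosolic enzymes higher and 1 lower and 2 mitochondrial ones higher and 0 lower. The siSCD#1 libraries were normalised in a separate table, so the 2 siRNAs were not tested against each other.

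**Figure D3:**
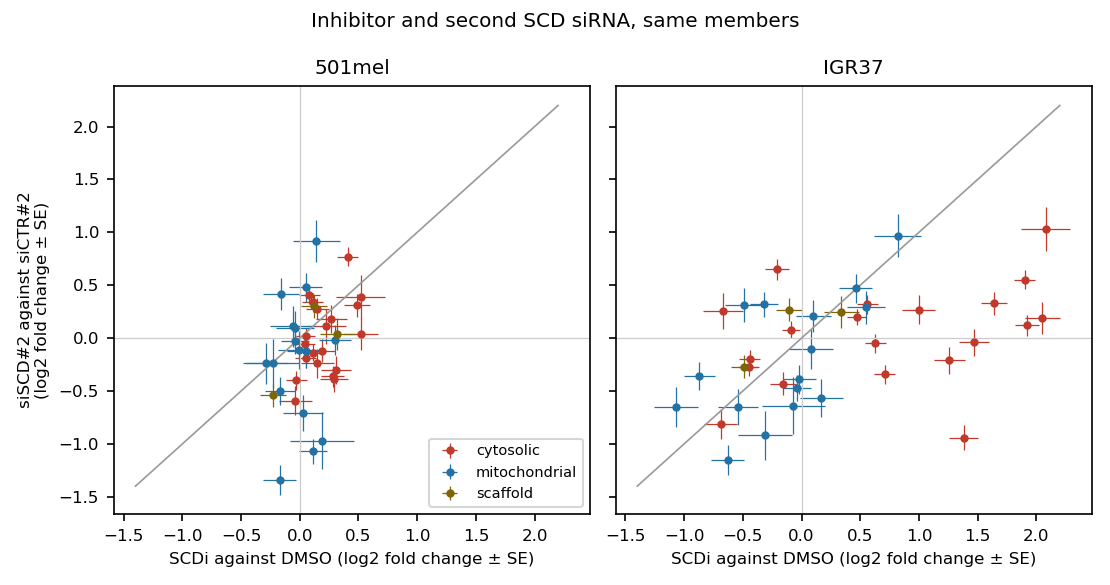
Log2 fold change of each member under SCDi against DMSO (x axis) and under siSCD#2 against siCTR#2 (y axis), with bars for 1 SE, in 501mel (left) and IGR37 cells (right); the grey line marks equal change. In IGR37 cells a run of cytosolic genes lies far to the right of the line, with AARS at 1.38 and -0.94, while mitochondrial genes lie on both sides of it.

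The cytosolic and mitochondrial genes were also summed in each library. Summed over the 20 cytosolic genes, IGR37 libraries held 4393 ± 119 CPM under SCDi and 2582 ± 35.6 under DMSO (SD, n = 3 each), while the 16 mitochondrial genes summed to 422 ± 11.7 under SCDi and 498 ± 12.9 under DMSO. The cytosolic sum was thus 10.4 ± 0.51 times the mitochondrial sum under SCDi and 5.19 ± 0.2 times under DMSO. Under siSCD#1 the ratio was 9.75 ± 1.3 in IGR37 siSCD#1 cells and 5.33 ± 0.19 in siCTR#1 cells, and 9.83 ± 0.41 in 501mel siSCD#1 cells and 7.53 ± 0.4 in siCTR#1 cells. In these 3 comparisons the ratios of the treated and control libraries did not overlap. Under siSCD#2 it was 5.51 ± 0.51 in IGR37 siSCD#2 cells and 5.6 ± 0.22 in siCTR#2 cells, and 6.92 ± 0.55 in 501mel siSCD#2 cells and 6.93 ± 0.2 in siCTR#2 cells, which overlapped. In 501mel cells the inhibitor gave 7.3 ± 0.29 under SCDi and 6.48 ± 0.093 under DMSO, with libraries at 7.22, 7.62 and 7.05 against 6.38, 6.51 and 6.56, again without overlap. The 501mel siCTR#2 control libraries, at 7.16, 6.83 and 6.81, also lay above all of these DMSO libraries.

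**Figure D4:**
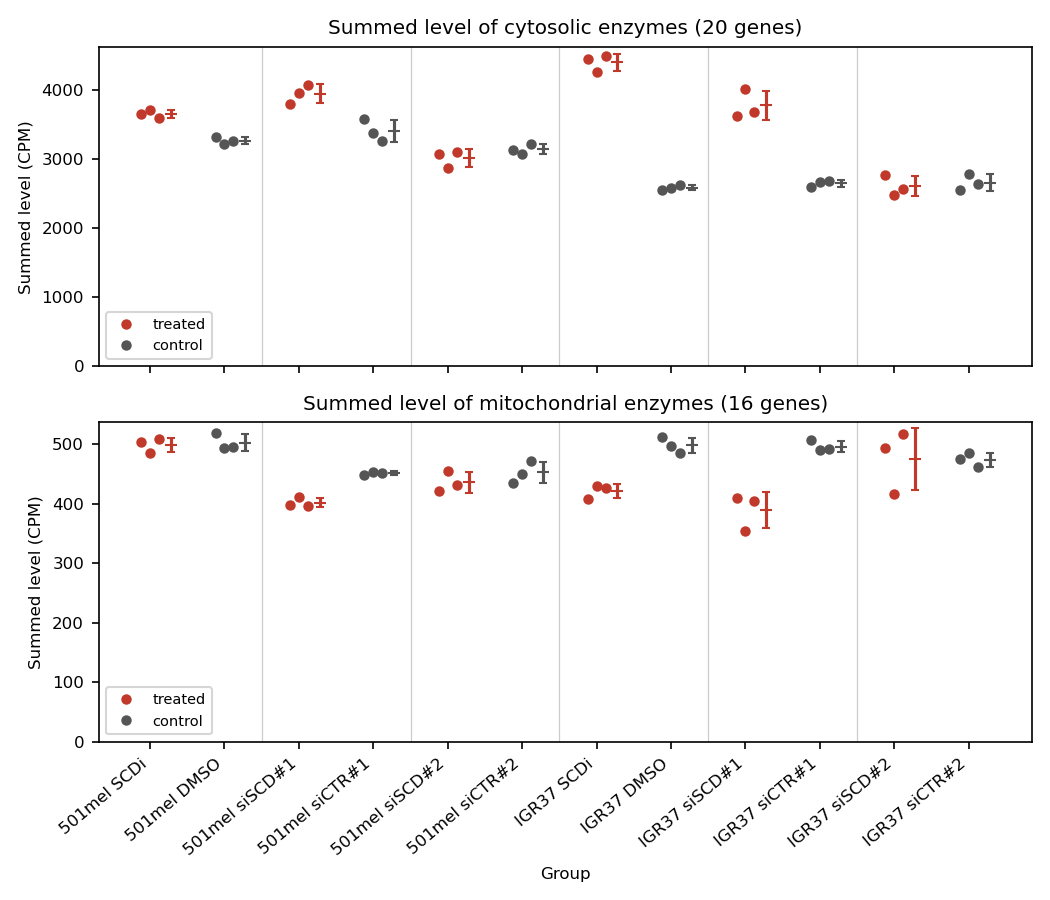
Summed level (CPM) of the 20 cytosolic genes (top) and the 16 mitochondrial genes (bottom) in each library, with mean and SD of 3, treated group left of its control. The cytosolic sum is 4393 CPM in IGR37 SCDi and 2582 CPM in IGR37 DMSO libraries, while the mean mitochondrial sums of the 12 groups lie between 389 and 503 CPM.

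Set against the mitochondrial enzyme for the same amino acid, the cytosolic enzyme had the higher log2 change in 9 to 16 of 16 pairs, depending on the treatment and line. EPRS stands in 2 of them, beside EARS2 and PARS2, and FARSA stands beside FARS2. In IGR37 cells this held for 12 pairs under SCDi, with a median gap of 1.29, for 15 under siSCD#1 (0.89) and for 10 under siSCD#2 (0.19). In 501mel cells it held for 13 pairs under SCDi (0.23), 16 under siSCD#1 (0.48) and 9 under siSCD#2 (0.08). The control siCTR#2 against DMSO gave 11 pairs (0.17) in IGR37 and 9 (0.06) in 501mel cells, so the siSCD#2 counts are near those of controls alone. In IGR37 cells the SCDi count of 12 is near that control count too, while the median gaps were 1.29 under SCDi and 0.17 between the controls. Methionine and glutamate gave wide gaps in IGR37 SCDi cells, with MARS at 2.08 beside MARS2 at -1.07 and EPRS at 1.26 beside EARS2 at -0.87. Tryptophan was unlike them, since WARS2 rose with WARS there (0.82 beside 1.92). A pair in which both genes lie in the same library shares its scaling, so these gaps do not move when all genes of a library are scaled alike.

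**Figure D5:**
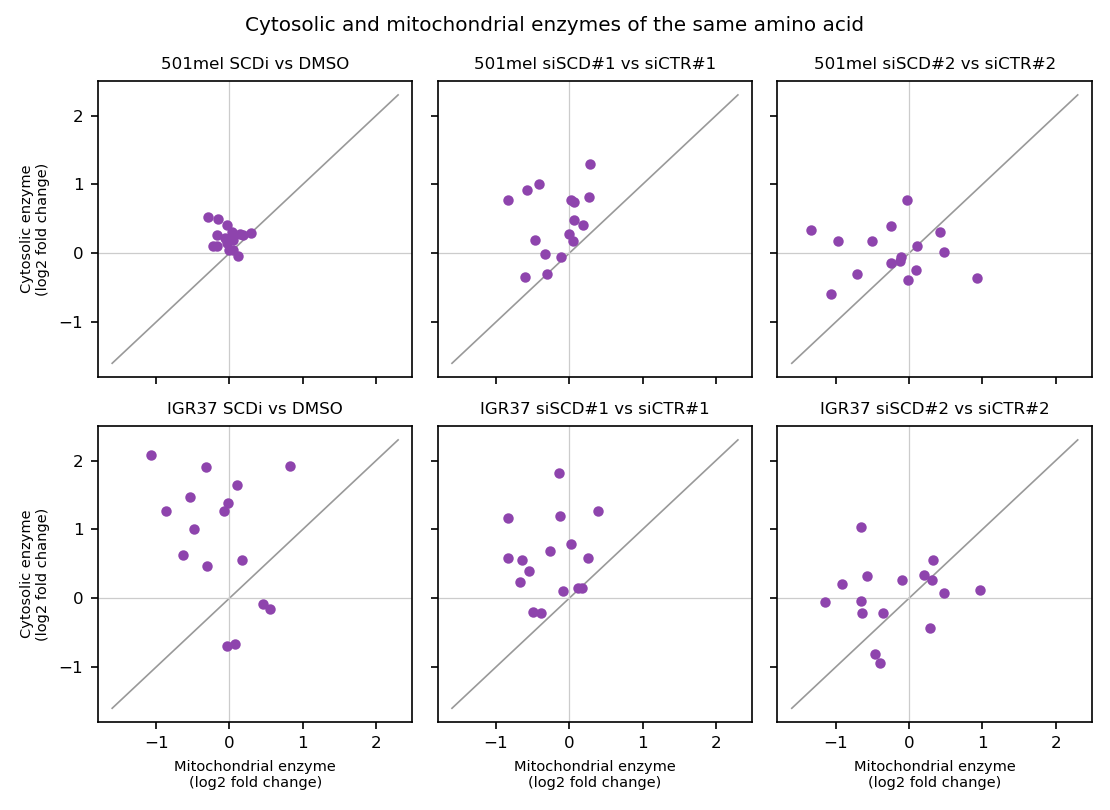
Log2 change of the mitochondrial enzyme (x axis) and of the cytosolic enzyme for the same amino acid (y axis) in 16 pairs, one panel per comparison; the grey line marks equal change. Points lie above the line in 12 of 16 pairs in IGR37 SCDi, 15 in IGR37 siSCD#1 and 16 in 501mel siSCD#1 cells, and in 9 and 10 of 16 under siSCD#2 in 501mel and IGR37 cells.

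Over the 3 treatments, 8 members in IGR37 and 1 in 501mel cells passed in the same direction each time. Of the 12896 genes in both tables, 5.23% rose and 6.09% fell in all 3 treatments in IGR37 cells, and 0.101% rose and 0.00775% fell in 501mel cells. In IGR37 cells CARS, MARS, SARS and TARS rose in all 3, FARSB fell in all 3, and so did the mitochondrial EARS2, LARS2 and MARS2. Of these, the siSCD#2 falls of FARSB (-0.27) and EARS2 (-0.36) did not pass without siSCD#2 replicate 2 or without siCTR#2 replicate 3, nor FARSB without siCTR#2 replicate 2 or EARS2 without siCTR#2 replicate 1. The siSCD#1 fall of LARS2 (-0.50) did not pass without siCTR#1 or siSCD#1 replicate 3, and the siSCD#2 rises of SARS and TARS were at -0.18 and -0.19 scaled to spike-ins. With that scaling the siSCD#2 rises of CARS and MARS did not pass, nor did that of MARS with only the compared groups in the fit. In 501mel cells SARS rose in all 3 and no member fell in all 3, but the inhibitor comparison there called 1 member only. Members that rose under 1 treatment and fell under another were QARS and WARS among the cytosolic enzymes and SARS2 among the mitochondrial ones in 501mel cells, and AARS, DARS, QARS and CARS2 in IGR37 cells. The CARS2 rise in IGR37 siSCD#2 cells (0.32) did not pass without siCTR#2 replicate 1, 2 or 3 or siSCD#2 replicate 1 or 3, nor the SARS2 fall in 501mel siSCD#1 cells (-0.41) without siCTR#1 replicate 1 or siSCD#1 replicate 1 or 3. The SARS2 rise in 501mel siSCD#2 cells (0.42) was lost without siCTR#2 replicate 1 or 3 or siSCD#2 replicate 1 or 2. QARS rose under siSCD#2 (0.28 in 501mel, lost without siCTR#2 or siSCD#2 replicate 1 and at -0.35 scaled to spike-ins, and 0.65 in IGR37 cells) and fell under siSCD#1 (-0.65 in 501mel, -0.25 in IGR37 cells, lost without siCTR#1 replicate 1 or 3). RARS and HARS2 passed in none of the 6 comparisons, with changes between -0.09 and 0.15 for RARS and between -0.10 and 0.11 for HARS2. AIMP1 did not pass in any either.

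The control cells of the 2 lines differed before any treatment against SCD. Under DMSO 2 cytosolic enzymes were higher and 10 lower in IGR37 than in 501mel cells, 3 mitochondrial ones were higher and 6 lower, and 2 scaffolds were lower, where 31.1% of all genes were higher and 29.7% lower, 60.8% in all; quantile normalisation gave 4 cytosolic enzymes higher and 9 lower. Under siCTR#1 the counts were 3 higher and 12 lower, 3 higher and 6 lower, and 1 scaffold lower, where 31.1% and 29.2% of all genes passed, 60.4% in all. Libraries of the 2 lines did not overlap for 14 cytosolic and 11 mitochondrial enzymes under DMSO, against 68.1% of all genes, and for 15 and 11 under siCTR#1, against 69%. SARS had 6.05, 5.88 and 6.12 log2 CPM in IGR37 DMSO libraries, against 7.34, 7.15 and 7.27 in 501mel DMSO libraries, a difference of -1.24 ± 0.11 (adjusted p = 3.4e-10). VARS, for valine, had 5.37, 5.25 and 5.16 in IGR37 DMSO libraries, against 6.40, 6.35 and 6.48 in 501mel ones, and TARS, for threonine, had 7.97, 8.06 and 7.95, against 8.94, 8.82 and 8.89. Neither overlapped, and they differed by -1.15 ± 0.11 and -0.89 ± 0.09 (adjusted p = 1.22e-09 and 2.15e-09). MARS had the widest cytosolic gap in both control sets, -1.80 ± 0.21 under DMSO and -1.65 ± 0.13 under siCTR#1 (adjusted p = 7.89e-08 and 2.17e-08). WARS was higher in IGR37 cells, by 0.67 ± 0.10 under DMSO and 1.10 ± 0.09 under siCTR#1 (adjusted p = 2.57e-06 and 2.39e-08).

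AARS2, the mitochondrial alanine enzyme, had 3.91, 3.99 and 4.21 log2 CPM in IGR37 DMSO libraries, against 5.79, 5.50 and 5.65 in 501mel DMSO libraries. WARS2 had 3.03, 2.93 and 2.74 in IGR37 DMSO libraries, against 4.80, 4.65 and 4.75 in 501mel ones. CARS2 had 6.41, 6.21 and 6.63 in IGR37 DMSO libraries, against 5.44, 5.26 and 5.10 in 501mel ones. The first 2 were lower in IGR37 by -1.61 ± 0.14 and -1.83 ± 0.20 and CARS2 was higher by 1.15 ± 0.12 (adjusted p = 3.58e-10, 1.41e-08 and 1.75e-08), each without overlap. Under siCTR#1 the same 3 genes differed by -1.35 ± 0.12, -1.14 ± 0.24 and 1.12 ± 0.12. Levels of AIMP1 and AIMP2 were lower in IGR37 DMSO cells by -0.56 ± 0.15 and -0.32 ± 0.11 (adjusted p = 0.00185 and 0.0116; AIMP2 did not pass without IGR37 DMSO replicate 2), and AIMP2 was lower, at -0.85 ± 0.07 under siCTR#1 (6.18e-08).

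ATF4 itself and its known targets were read beside the synthetases, from a list of 22 genes. ATF4 had 10.06, 10.02 and 10.06 log2 CPM in IGR37 SCDi libraries, against 7.54, 7.44 and 7.76 in DMSO libraries, and 9.28, 9.49 and 9.35 in 501mel SCDi libraries, against 8.78, 8.58 and 8.70 in DMSO libraries. It rose by 2.47 ± 0.14 in IGR37 and 0.69 ± 0.14 in 501mel cells (adjusted p = 3.01e-13 and 0.0188). Under siSCD#1 it rose by 1.81 ± 0.09 in IGR37 and 1.07 ± 0.09 in 501mel cells, and under siSCD#2 by 0.87 ± 0.14 and 0.58 ± 0.14 (adjusted p = 6.51e-10, 1.65e-07, 1.22e-05 and 0.00159). Scaling to spike-ins moves all genes of a comparison alike, and under siSCD#2 it moved them down in both lines. In 501mel cells that shift was larger than the ATF4 rise of 0.58, so the direction of that rise rests on the scaling. Of the list, 19 rose and 2 fell in IGR37 SCDi cells (20.9% and 23.1% of all genes), 20 and 1 under siSCD#1 (16.7% and 19.4%) and 13 and 4 under siSCD#2 (23.2% and 22.7%). In 501mel cells 7 rose and 0 fell under SCDi (0.232% and 0.0599% of all genes), 18 and 1 under siSCD#1 (20.9% and 22%) and 10 and 2 under siSCD#2 (18.3% and 19.5%). This list and the lists below were not recounted with spike-in scaling. The cystine carrier gene SLC7A11 and ASNS, for asparagine synthesis, rose by 4.36 ± 0.15 and 4.34 ± 0.16 in IGR37 SCDi cells (adjusted p = 4.78e-17 and 6.51e-17). SLC7A5, whose protein takes up large amino acids, fell, at -2.97 ± 0.14 in 501mel and -1.89 ± 0.14 in IGR37 siSCD#2 cells (adjusted p = 1.19e-14 and 3.78e-11). The part of ATF4 in the synthetase changes was not tested.

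Counts were also made for 36 other genes that make, modify or carry transfer RNAs. In IGR37 cells 6 rose and 12 fell under SCDi (20.9% and 23.1% of all genes), 2 and 12 under siSCD#1 (16.7% and 19.4%) and 9 and 10 under siSCD#2 (23.2% and 22.7%). In 501mel cells none of them passed under SCDi, where the unadjusted p of 1 higher and 1 lower gene was under 0.05, and 6 rose and 11 fell under siSCD#1 (20.9% and 22% of all genes) and 11 and 11 under siSCD#2 (18.3% and 19.5%). POP1, a subunit of the nucleases that trim transfer RNA precursors, fell, at -1.15 ± 0.16 in IGR37 SCDi cells and by -1.0 ± 0.14 in 501mel and -0.93 ± 0.14 in IGR37 siSCD#1 cells (adjusted p = 2.2e-06, 2.46e-05 and 6.76e-05). DTD1, which removes wrongly attached amino acids, fell, at -1.32 ± 0.10 in 501mel and -1.55 ± 0.10 in IGR37 siSCD#2 cells and rose by 0.66 ± 0.10 in IGR37 SCDi cells (adjusted p = 5.26e-11, 1.89e-12 and 3.24e-06). GTPBP3, which modifies mitochondrial transfer RNAs, fell, at -1.25 ± 0.11 in 501mel and -1.24 ± 0.11 in IGR37 siSCD#2 cells (adjusted p = 2.81e-09 and 2.29e-09).

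Since WARS also answers to interferon, 17 interferon response genes were read beside it. In IGR37 SCDi cells, where WARS rose by 1.92, 2 of them rose and 1 fell (20.9% and 23.1% of all genes), with IRF1 at 1.36 ± 0.36, TAP1 at 0.59 ± 0.19 and IFIT1 at -3.87 ± 0.63 (adjusted p = 0.00292, 0.0147 and 1.6e-05). In IGR37 siSCD#1 cells 3 rose and 1 fell (16.7% and 19.4% of all genes), and in 501mel siSCD#1 cells 6 rose and 0 fell (20.9% and 22%). Under siSCD#2, 1 rose and 5 fell in 501mel cells (18.3% and 19.5% of all genes) and 4 rose and 5 fell in IGR37 cells (23.2% and 22.7%). Under SCDi in 501mel cells 0 passed by limma; before adjustment p was under 0.05 for 0 higher genes and 1 lower gene. The list's median changes lay at 0.06 in IGR37 SCDi and 0.10 in IGR37 siSCD#1 cells, beside 1.92 and 1.27 for WARS, and the part of interferon signalling in the WARS level was not tested.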

How the data were processed

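The authors deposited log2 CPM per gene in 2 tables (first: 24 libraries of DMSO, SCDi, siCTR#2 and siSCD#2; second: 12 of siCTR#1 and siSCD#1), normalised separately. The submitters' processing notes name STAR, edgeR and hg38; versions, annotation and strand setting are not given in the sources used here. Total RNA was prepared with QuantSeq Forward kits, per the labels' protocols. A value of 0 reads is -4.43 log2 CPM in the first and -4.24 in the second table; whole reads recovered from the log2 steps lay within 0.000466 reads of whole numbers and serve only for read numbers here. Spike-in rows (66 and 60) and 1 tag row were left out.

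Groups were compared with limma 3.58.1 in R 4.3.3 (lmFit, contrasts.fit, eBayes with variance trend) on the log2 values, 1 coefficient per group of 3 libraries and all groups of a table in the fit. P-values are two-sided, Benjamini-Hochberg adjusted over all genes of the table, and called under 0.05; errors of changes are standard errors. Comparisons were made within a table only, 15 in all, of which 2 (inhibitor effect minus siSCD#2 effect in each line) were added after the data had been seen. The script was tested on simulated data. Named members per comparison were at most the 3 cytosolic, 3 mitochondrial and 1 scaffold member with the smallest adjusted p among those called, with library values, plus WARS, GARS, KARS, SARS, ATF4 and SCD, and at most 4 genes of each other list by smallest adjusted p. MARS and DDIT3 library values were added after they were seen, because of their overlap. The members and lists were chosen with earlier results of these data known. Gene positions are from GENCODE 29 and promoters from RefSeq, searched with Python 3.11.15. In IGR37 siSCD#2 cells 1 column is known by group only, since its number differs from the label's. Floors of 3 counts and all depths cover counting error only. Alternatives were other sets of groups, no variance trend, a filter (log2 above 2 in 3 libraries, keeping 11388 and 11149 genes), log2(CPM + 1), quantile normalisation, median centring, a replicate block, leaving out each library and, added later, scaling to spike-ins.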

Additional observations from a re-analysis of the deposited data

Results flagged for a closer look

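The effect of a treatment differed between IGR37 and 501mel cells, by the interaction test (limma, adjusted p under 0.05), for 20 of the 39 members under SCDi (27.6% of all genes), 8 under siSCD#2 (21.1% of all genes) and 11 under siSCD#1 (20.3% of all genes). The siSCD#2 share of the members is near that of all genes. All values below are the log2 change in IGR37 minus that in 501mel cells.

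Under SCDi the effect was more positive in IGR37 for the cytosolic WARS (1.64), MARS (1.56), GARS (1.53), CARS (1.49), YARS (1.16), SARS (1.15), AARS (1.09), EPRS (0.99), IARS (0.85), DARS (0.63), LARS (0.52), TARS (0.52) and NARS (0.37). It was more negative in IGR37 for HARS (-0.88), FARSA (-0.66), FARSB (-0.49), KARS (-0.41) and QARS (-0.37), and for the mitochondrial MARS2 (-0.78) and EARS2 (-0.70). Beside these stand the ATF4 changes, 2.47 in IGR37 and 0.69 in 501mel cells, whose part was not tested.

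Under siSCD#2 the effect was more positive in IGR37 for WARS (0.48), TARS (0.38), QARS (0.37), NARS (0.33) and FARS2 (0.60). It was more negative for DARS (-0.75), AARS (-0.54) and LARS (-0.39). In IGR37 cells siCTR#2 stood above DMSO for DARS (0.62) and AARS (0.53), and also for CARS (0.42) and TARS2 (0.54), whose siSCD#2 effects did not pass the test between lines.

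Under siSCD#1 the effect was more positive in IGR37 for CARS (0.90), DARS (0.52), VARS (0.49), WARS (0.45), QARS (0.40), VARS2 (0.79) and AIMP2 (0.49). It was more negative for IARS (-1.07), IARS2 (-0.95), MARS2 (-0.90) and EEF1E1 (-0.50). The 2 isoleucine enzymes thus moved the same way in this difference, while valine's VARS and VARS2 moved together the other way. Other pairs parted: MARS was at 0.43 beside MARS2 at -0.90, NARS at 0.21 beside NARS2 at -0.60 and TARS at 0.08 beside TARS2 at -0.72. Of these only the MARS2 difference passed.

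Calls of the difference that were lost without 1 library were, under SCDi, QARS, NARS and MARS2; under siSCD#2, AARS, LARS, NARS, QARS, TARS, WARS (IGR37 siCTR#2 replicate 1) and FARS2 (IGR37 siSCD#2 replicate 3), so that DARS alone kept its call without any 1 library; and under siSCD#1, VARS, MARS2 and EEF1E1.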

How the results depend on the processing

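Counts of members called moved by over 1.5 times in these cases. For 501mel SCDi (1 member), 0 passed with only the compared groups, with no variance trend or with median centring, 2 with quantile normalisation and 3 scaled to spike-ins; leaving out single libraries gave 0 throughout. For IGR37 siSCD#2 (22), 12 passed with only the compared groups and 17 to 23 without single libraries. For the siSCD#2 line difference (8), 1, 3, 5, 5 and 0 passed with only the compared groups, no trend, quantile normalisation, the replicate block and spike-ins, and 4 to 11 without single libraries. For the siSCD#1 line difference (11), 6 passed with no trend, 17 with centring and 3 with spike-ins, and 8 to 14 without single libraries. For siCTR#2 against DMSO, 501mel gave 2 members with the filter, pseudocount, centring or replicate block and 0 with spike-ins (1 in the report; 1 to 2 without single libraries), and IGR37 gave 3 with no trend and 0 with spike-ins (6 in the report; 3 to 5 without single libraries). For SCDi minus siSCD#2 in 501mel (10), 34 passed with spike-ins and 5 to 11 without single libraries.

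Spike-in scaling reversed 14 called values: in 501mel siSCD#2 cells DARS (-0.22), LARS (-0.28), QARS (-0.35), SARS (-0.31), RARS2 (-0.14), SARS2 (-0.20) and AIMP2 (-0.33); in IGR37 siSCD#2 cells SARS (-0.18), TARS (-0.19), CARS2 (-0.19), RARS2 (-0.0372) and AIMP2 (-0.24); NARS in the SCDi line difference (-0.0945) and WARS2 in SCDi minus siSCD#2 in 501mel cells (0.21). It shifted the median of all genes by 0.364 (501mel SCDi), -0.099 (IGR37 SCDi), -0.627 and -0.508 (siSCD#2 in 501mel and IGR37) and -0.234 and -0.246 (siSCD#1 in 501mel and IGR37); the labels do not say how spike-ins were added. Of 232 called values, 0 were lost with the pseudocount or filter, 12 with centring, 24 with no trend, 32 with only the compared groups, 23 with quantile normalisation and 62 more with spike-ins; the causes were not tested. With the replicate block 16 were lost, but same-numbered libraries did not deviate together (r over 0.1 in 2 of 39 pairs, range -0.223 to 0.156), so the numbers are not taken as a pairing. Depth was lowest for PARS2 in IGR37 siSCD#2 cells, with 58 reads over 3 libraries.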
